A study of Saccharomyces cerevisiae with 12 samples.

Results

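The RPS genes encode the proteins of the small (40S) subunit of the cytosolic ribosome. All genes named RPS0A to RPS31 in the deposited table were taken by their identifiers, which gave 56 genes among 7126 identifiers. Of these, 48 form 24 pairs of paralogs, an A and a B copy, and 8 are single-copy genes. RNA was measured by sequencing of rRNA-depleted total RNA of Saccharomyces cerevisiae MGD353-13D at mid log phase in YPD. There were 6 strains with 2 libraries each: the wild type (WT), a deletion of SDC1 (Sdc1_KO), a deletion of the DPY30 motif of Sdc1 (Dpy30_KO), a point mutant of Sdc1 (Sdc1_mut), a deletion of JHD2 (Jhd2_KO) and the point mutant that also lacks JHD2 (Sdc1_mut_Jhd2_KO). Sdc1 is a subunit of the Set1 complex, which methylates histone H3 at lysine K4, and Jhd2 removes this methylation. No label states that the 2 libraries of a strain are separate cultures or clones, and p-values here then reflect only the spread from library to library, which may be technical.

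The small subunit binds the mRNA and reads its codons. Yeast kept most ribosomal protein genes as paired copies from an ancient genome duplication, and many carry an intron, which is rare among other yeast genes. These genes are among the most strongly transcribed in growing cells, they follow nutrient signals through the TOR pathway, and the factors Rap1, Fhl1 and Ifh1 act at many of their promoters. Some copies also control their own pair: in S. cerevisiae, Rps14 protein binds the pre-mRNA of RPS14B and represses its splicing, and Rps28 protein binds the RPS28B mRNA and promotes its decay.

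Libraries held 8652878 to 26041718 fragments, and RPS genes took 2.45 to 4.76% of them. SDC1 stood at 24.3 and 25.5 CPM (fragments scaled to a common library size) in WT and at 0 in both Sdc1_KO libraries, and JHD2 stood at 0 in every library of the 2 strains that lack it. SDC1 was at 14.5 and 14.3 CPM in Dpy30_KO, 38.5 and 39.2 in Sdc1_mut, and 46 and 44.8 in Sdc1_mut_Jhd2_KO. JHD2 was at 6.27 and 4.36 CPM in WT and at 13 to 17 CPM in Sdc1_KO, Dpy30_KO and Sdc1_mut. Mitochondrially encoded RNA separated the strains: Dpy30_KO, Sdc1_mut and Sdc1_mut_Jhd2_KO libraries held 2 to 17 such fragments and the other libraries 29210 to 62777. Of 7 a-specific mating genes, 6 were lower than in WT in each of those 3 strains, 2 were lower and 1 higher in Sdc1_KO, and 0 were called in Jhd2_KO. Their summed level was 178 to 265 CPM in the 3 strains and 390 to 585 CPM in the others, and none of them was at 0 in every library. Of 4 alpha-specific genes, 2 were higher in each single SDC1 mutant, 4 in Sdc1_mut_Jhd2_KO and 1 in Jhd2_KO, with summed levels of 43.8 to 79.5 CPM over all libraries. Of all genes, 28%, 27.2%, 27.9% and 29.1% were called higher in Sdc1_KO, Dpy30_KO, Sdc1_mut and Sdc1_mut_Jhd2_KO, and 0.755% in Jhd2_KO. In the same order 22.4%, 25.1%, 24.7%, 30.1% and 0.88% were called lower. The counts of a-specific genes in Sdc1_KO lie near these shares. The part of the differences in mitochondrial RNA and mating genes in the results on RPS genes was not tested. The low mitochondrial RNA of Dpy30_KO, Sdc1_mut and Sdc1_mut_Jhd2_KO cannot be told apart from their SDC1 changes in comparisons with WT. Bulk RNA cannot tell fewer RNA molecules per cell from more of all other RNA, and no spike-in is named in the labels.

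The RPS14, RPS28 and RPS9 copies are shown because their A to B ratios moved most in Sdc1_KO, and the RPS28 ratio also moved most in the other strains, where it was called in all but Jhd2_KO. The genes are RPS14A (YCR031C, chrIII:177500-178220, minus strand), RPS14B (YJL191W, chrX:73787-74611, plus strand), RPS28A (YOR167C, chrXV:648804-649007, minus strand), RPS28B (YLR264W, chrXII:673131-673334, plus strand), RPS9A (YPL081W, chrXVI:404950-406044, plus strand) and RPS9B (YBR189W, chrII:604508-605508, plus strand). Coordinates are on sacCer3 and span start to stop codon, and the sequences were read from its RefSeq counterpart. The coding stretches of 90 bases were chosen as those with the most differences between copies (13 in RPS14, 14 in RPS28, 13 in RPS9), and capitals mark the bases that differ.
RPS14A, chrIII:177814-177903, minus strand: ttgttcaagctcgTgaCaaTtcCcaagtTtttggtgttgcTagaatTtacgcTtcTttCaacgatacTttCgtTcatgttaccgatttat
RPS14B, chrX:74208-74297, plus strand: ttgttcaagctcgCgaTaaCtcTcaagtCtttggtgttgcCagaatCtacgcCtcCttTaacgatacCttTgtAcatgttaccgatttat
RPS28A, chrXV:648915-649004, minus strand: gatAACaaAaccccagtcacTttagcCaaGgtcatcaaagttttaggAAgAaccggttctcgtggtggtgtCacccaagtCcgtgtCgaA
RPS28B, chrXII:673134-673223, plus strand: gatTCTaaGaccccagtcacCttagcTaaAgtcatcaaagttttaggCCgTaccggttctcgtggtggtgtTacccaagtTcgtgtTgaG
RPS9A, chrXVI:405664-405753, plus strand: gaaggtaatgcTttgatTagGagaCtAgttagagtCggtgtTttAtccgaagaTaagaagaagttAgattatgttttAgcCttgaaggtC
RPS9B, chrII:605134-605223, plus strand: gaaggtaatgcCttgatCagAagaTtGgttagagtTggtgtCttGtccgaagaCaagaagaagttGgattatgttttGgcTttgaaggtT

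Over the whole coding sequence the RPS14 copies were 92.1% identical, the RPS28 copies 88.2% and the RPS9 copies 90.9%, so that reads of these copies differ at many places. The proteins differ at 3 positions in RPS14, 1 in RPS28 and 5 in RPS9. Over the 24 pairs, 9 encode identical proteins, and RPS7 has the most differences, 23. On the nucleotide level, 9 pairs (not all of them the ones with identical proteins) have copies at least 95% identical, RPS4, RPS6, RPS19, RPS23, RPS24 and RPS30 among them. The authors' treatment of reads that fit both copies is not stated in the sources used here, so the split between the copies of these 9 pairs is uncertain.

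Introns interrupt 36 of the 56 genes, RPS14 and RPS9 among them. The first 6 intron bases, where the spliceosome's U1 RNA pairs, were GTATGT in 24 genes, GTACGT in 9 and GTATGA in 3, RPS6A among them. RPS14 is shown because its copies differ there, and RPS9 for comparison, with the first 6 intron bases in capitals after 12 exon bases.
RPS14A, chrIII:178196-178225, minus strand: ccgccatgtctaGTATGTttaatcacatag
RPS14B, chrX:73785-73814, plus strand: gaatggctaacgGTACGTgaaaggggtgat
RPS9A, chrXVI:404945-404974, plus strand: acaacatgccaaGTACGTcgttaatcttct
RPS9B, chrII:604503-604532, plus strand: caacaatgccaaGTACGTattagactatat
A match of these letters is a description, and spliced and unspliced RNA cannot be told apart in the deposited gene counts.

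In WT the copies of most pairs stood close together, and 3 pairs stood far apart. Levels between genes are compared as CPM per kb of coding length. The A copy was above the B copy in 15 pairs and below it in 9, and 21 of the 24 pairs were under 3-fold apart. RPS28A was 23.0-fold above RPS28B, RPS14A was 19.3-fold above RPS14B, and RPS9B was 19.8-fold above RPS9A. The RPS0 copies, which encode a protein on the solvent side of the subunit, were the closest, with RPS0A 1.08-fold above RPS0B. The authors' FPKM gave the same higher copy in all 24 pairs. Across all 12 libraries the order of the copies turned in at least 1 library in 4 pairs, RPS0, RPS7, RPS10 and RPS23.

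**Figure D1:**
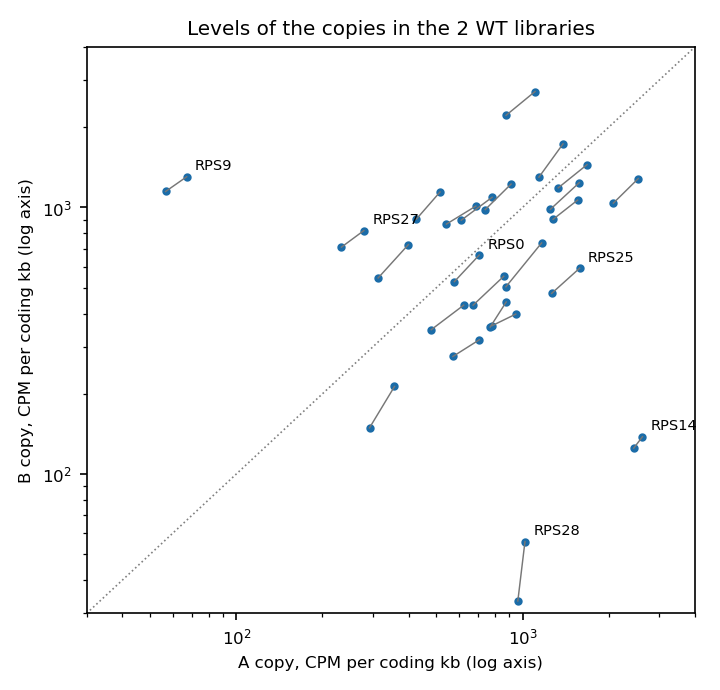
Levels of the A copy (x axis) and the B copy (y axis) of 24 RPS pairs in WT, as CPM per kb of coding length on log axes, each line joining the 2 WT libraries of a pair and the dotted line marking equal levels. RPS28 and RPS14 lie far below the line and RPS9 far above it, at 23.0, 19.3 and 19.8-fold.

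On this scale the highest RPS level in WT was that of RPS31, whose protein is made as a fusion with ubiquitin, at 4810 and 5414 CPM per kb. RPS12 followed at 2829 and 3368 CPM per kb, with a mean of 3098. RPS14A had a mean of 2535 CPM per kb. By the authors' FPKM the order differed, and RPS21B, at 13674 and 17677, stood above RPS31, at 9513 and 10786, in both WT libraries. The gap between RPS31 and RPS12 was larger than the spread of the WT libraries, and RPS14A, at 2446 and 2625 CPM per kb, lay below both libraries of RPS12. At the low end stood RPS14B (mean 132), RPS9A (61.9) and RPS28B (44.6 CPM per kb). The 8 genes with under 80% unique windows of 50 bases had a median of 435 CPM per kb against 1008 for the other 48. The part of reads shared by both copies in this gap was not tested.

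All RPS genes shared a shift between the 2 WT libraries. WT replicate 2 was above WT replicate 1 in 56 of 56 genes, with a median ratio of 1.23, while the median ratio of all genes was 1.0. In Sdc1_KO replicate 2 was above replicate 1 in 54 of 56 (median 1.21) and in Jhd2_KO in 53 of 56 (median 1.14). In the other strains the median ratios were 1.02 to 1.07. In the labels, 11 libraries are numbered consecutively and WT replicate 1 is not among them.

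RPS RNA was higher in all 3 strains with a changed SDC1 gene and an intact JHD2 gene. The summed level of the 56 genes was 26282 and 31468 CPM in WT. It was 39712 and 48786 CPM in Sdc1_KO, 45346 and 45902 CPM in Dpy30_KO, and 47837 and 48596 CPM in Sdc1_mut. In Jhd2_KO it was 24484 and 28342 CPM, and in Sdc1_mut_Jhd2_KO 29555 and 30924 CPM. The libraries of the 3 single SDC1 mutants all lay above those of the other 3 strains. The WT range overlapped that of Jhd2_KO and held that of Sdc1_mut_Jhd2_KO.

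Genes were called at an adjusted p under 0.05 over all 6361 genes tested, and all 56 RPS genes passed the expression filter. In Sdc1_KO, 47 RPS genes rose and 1 fell, while 28% of all genes rose and 22.4% fell (1782 and 1426 genes, against 1399 and 1674 with limma on the authors' FPKM). In Dpy30_KO, 50 rose and 0 fell against 27.2% and 25.1% of all genes, and in Sdc1_mut 54 rose and 0 fell against 27.9% and 24.7%. The median log2 fold change of the 56 genes was 0.62 in Sdc1_KO, 0.66 in Dpy30_KO and 0.75 in Sdc1_mut, beside 0.04, 0.02 and 0.02 over all genes. The 3 comparisons share the WT libraries. The count in Sdc1_KO was smaller without WT replicate 1, and a fit of only the Sdc1_KO and WT libraries called 27 higher. The share of all genes called in these fits was not counted.

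The rises included A and B copies and genes with and without an intron. In Sdc1_mut 24 of 24 A copies, 23 of 24 B copies and 7 of 8 single-copy genes rose. All 36 intron-containing genes rose in that strain (median 0.82), as did 18 of the 20 without an intron (median 0.70). In Sdc1_KO the counts were 32 of 36 and 15 of 20. Among the 38 genes without a near-identical copy, 29 rose in Sdc1_KO, 32 in Dpy30_KO and 36 in Sdc1_mut. The genes of the large ribosomal subunit moved beside them: of 78 tested RPL and RPP genes, 63 rose in Sdc1_KO, 65 in Dpy30_KO with 1 lower, and 68 in Sdc1_mut. For each of these counts, the share of all genes that rose was 28% in Sdc1_KO, 27.2% in Dpy30_KO and 27.9% in Sdc1_mut.

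After RPS28B, the largest rises in Dpy30_KO and Sdc1_mut were those of RPS0A, RPS0B and RPS10A among the genes named here, whose proteins lie on the solvent side (Rps0) and in the beak (Rps10) of the subunit. RPS0B was at 400 and 503 CPM in WT, 970 and 1043 in Sdc1_KO, 925 and 1014 in Dpy30_KO, and 995 and 1053 in Sdc1_mut. It rose by 1.16 ± 0.15, 1.10 ± 0.15 and 1.18 ± 0.15 on the log2 scale. RPS0A was at 439 and 536 CPM in WT and at 999 to 1067 CPM in Dpy30_KO and Sdc1_mut, where it rose by 1.09 ± 0.14 and 1.05 ± 0.14. RPS10A was at 194 and 249 CPM in WT and at 466 to 547 CPM in these strains and rose by 1.10 ± 0.13 and 1.29 ± 0.13. The mutant libraries given here lay above both WT libraries in all 3 genes, which were picked by their large rises. Of all genes, 38.4% lay above WT in this way in Sdc1_KO, 40.5% in Dpy30_KO and 41% in Sdc1_mut.

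**Figure D2:**
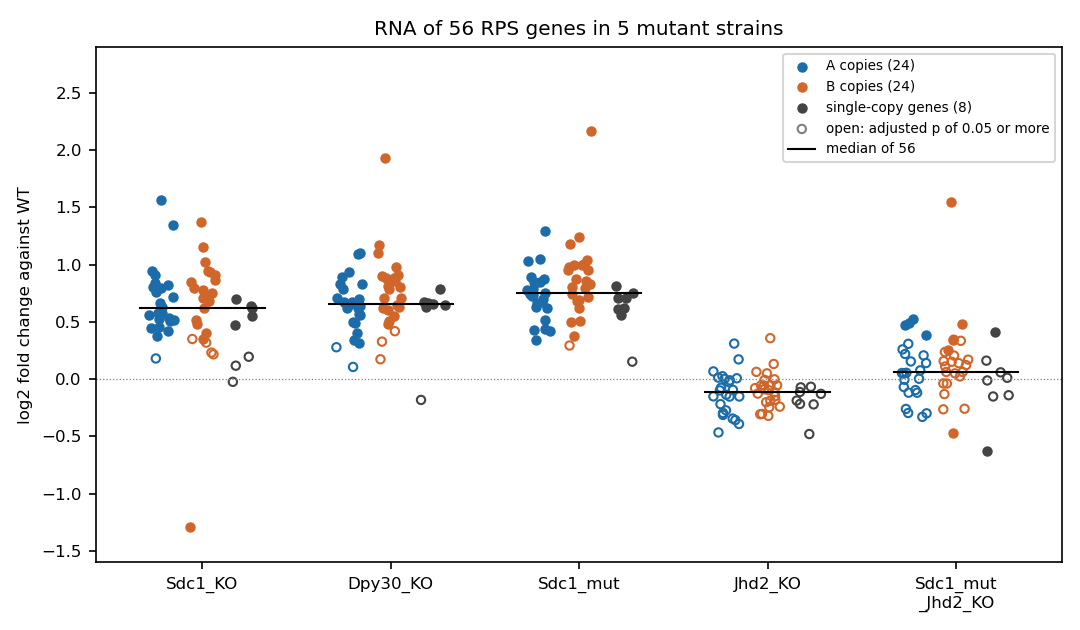
Log2 fold change against WT (y axis) of each of the 56 RPS genes in 5 mutant strains (x axis), blue for A copies, orange for B copies and dark grey for single-copy genes, filled where the adjusted p was under 0.05, with a black line at the median. In Sdc1_KO RPS14B lies at -1.29 while 47 genes were called higher, and in Jhd2_KO 0 genes were called.

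The single-copy genes, which have no second copy to share reads with, rose in most cases, with 3 not called in Sdc1_KO. RPS2 (YGL123W), at the mRNA entry of the subunit, was at 1230 and 1393 CPM in WT and at 1784 and 2053 in Sdc1_KO, 2004 and 2147 in Dpy30_KO, and 2176 and 2254 in Sdc1_mut. These groups did not overlap with WT, and RPS2 rose by 0.55 ± 0.13 (SE), 0.66 ± 0.13 and 0.76 ± 0.13 on the log2 scale. RPS3, its neighbour at the entry, rose by 0.62 ± 0.14, 0.65 ± 0.14 and 0.81 ± 0.14. RPS15, a protein of the subunit head, rose by 0.70 ± 0.14, 0.63 ± 0.14 and 0.71 ± 0.14. In a fit of only the Sdc1_KO and WT libraries RPS2 and RPS3 were not called in Sdc1_KO (adjusted p = 0.082 and 0.063). RPS13 rose by 0.79 ± 0.15 in Dpy30_KO and 0.61 ± 0.15 in Sdc1_mut. Its rise in Sdc1_KO (0.47 ± 0.15, adjusted p = 0.02) was not called without WT replicate 1 (adjusted p = 0.16) or without Sdc1_KO replicate 2 (0.25, adjusted p = 0.11). In Sdc1_mut the call of RPS13 ended without WT replicate 1 (adjusted p = 0.055).

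RPS12, RPS20 and RPS31 were the single-copy genes not called in Sdc1_KO. RPS12 (YOR369C) was at 1222 and 1455 CPM in WT, 1133 and 1499 in Sdc1_KO, 1201 and 1159 in Dpy30_KO, and 1511 and 1463 in Sdc1_mut. The Sdc1_KO libraries spanned the WT range, those of Dpy30_KO lay just below it and those of Sdc1_mut just above it, with log2 fold changes of -0.02 ± 0.15 (adjusted p = 0.9), -0.18 ± 0.15 (adjusted p = 0.32) and 0.15 ± 0.15 (adjusted p = 0.41). RPS20, which lies in the head, stood at 0.20 ± 0.13 (adjusted p = 0.21) in Sdc1_KO and rose by 0.66 ± 0.13 in Dpy30_KO and 0.62 ± 0.13 in Sdc1_mut. RPS31 (YLR167W) was at 2208 and 2485 CPM in WT and at 2175 and 2914 in Sdc1_KO, an overlap with a log2 fold change of 0.12 ± 0.14 (adjusted p = 0.52). RPS31 rose by 0.65 ± 0.14 in Dpy30_KO and 0.56 ± 0.14 in Sdc1_mut, the latter not called without WT replicate 1 (adjusted p = 0.057). Without Sdc1_KO replicate 1, both RPS20 (0.33, adjusted p = 0.015) and RPS31 (0.29, adjusted p = 0.035) were called higher in Sdc1_KO.

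**Figure D3:**
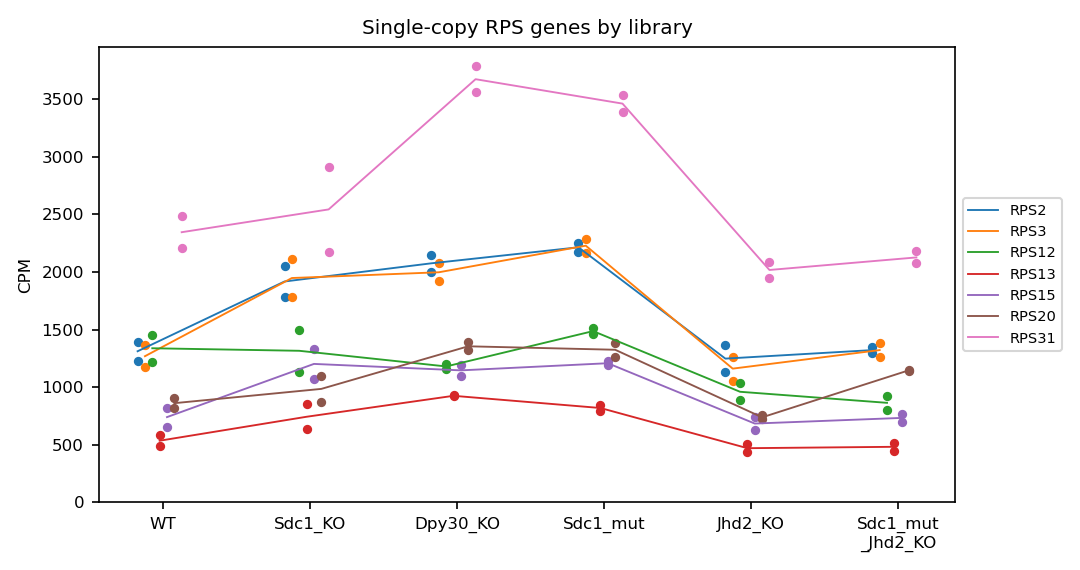
Level of 7 single-copy RPS genes in CPM (y axis) in 6 strains (x axis), each point a library and each line joining the means of 2 libraries. RPS12 stays between 1133 and 1511 CPM in WT and the 3 single SDC1 mutants, while RPS2 goes from at most 1393 CPM in WT to at least 1784 CPM in them.

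RPS14 was the pair whose copies went opposite ways in Sdc1_KO. Rps14 lies on the platform of the subunit. RPS14A was at 1013 and 1087 CPM in WT and at 2502 and 2844 in Sdc1_KO. RPS14B was at 52.2 and 57.7 CPM in WT and at 20.3 and 24.6 in Sdc1_KO, from 1374 and 1377 fragments in WT and 311 and 414 in Sdc1_KO. In both copies the Sdc1_KO libraries lay outside the range of the other 10. RPS14A rose by 1.35 ± 0.12 (adjusted p = 5.3e-06) and RPS14B fell by 1.29 ± 0.12 (adjusted p = 7.8e-06).

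The ratio of the copies was tested within libraries, which removes the scaling between libraries, and p-values were adjusted over 755 paralog pairs of the genome. The B copy held 4.9 and 5.04% of RPS14 fragments in WT, 0.803 and 0.857% in Sdc1_KO, and 4.52 to 6.44% in the other 8 libraries. The log2 ratio of A to B rose by 2.64 ± 0.11 in Sdc1_KO (6.25-fold, adjusted p = 1.6e-07). In the other single SDC1 mutants the change was -0.29 ± 0.11 in Dpy30_KO (adjusted p = 0.039, not called without any 1 of the 4 libraries, adjusted p = 0.051 to 0.21) and -0.07 ± 0.11 in Sdc1_mut (adjusted p = 0.62). Set directly against each other, the ratio in Sdc1_KO was above that in Dpy30_KO by 2.93 ± 0.11 (adjusted p = 5.8e-08) and above that in Sdc1_mut by 2.71 ± 0.11 (adjusted p = 1.3e-07). These 2 contrasts were chosen after the values of RPS14 had been seen. RPS14B itself rose in Dpy30_KO by 0.60 ± 0.12 (adjusted p = 0.00084). In Sdc1_mut it rose by 0.51 ± 0.12 (adjusted p = 0.0025). Together the 2 copies held 1065 and 1144 CPM in WT, 2523 and 2868 in Sdc1_KO and 834 to 1553 in the other libraries.

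On chromosome X the genes RPS14B and RPS22A are neighbours that run toward each other (chrX:73787-74611 and chrX:74910-75302), without overlap of their annotated coding spans. RPS22A did not follow RPS14B in Sdc1_KO, where it rose by 0.56 ± 0.15 (adjusted p = 0.0076). That call ended without WT replicate 1 (adjusted p = 0.075), and the value was 0.26 without Sdc1_KO replicate 2.

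**Figure D4:**
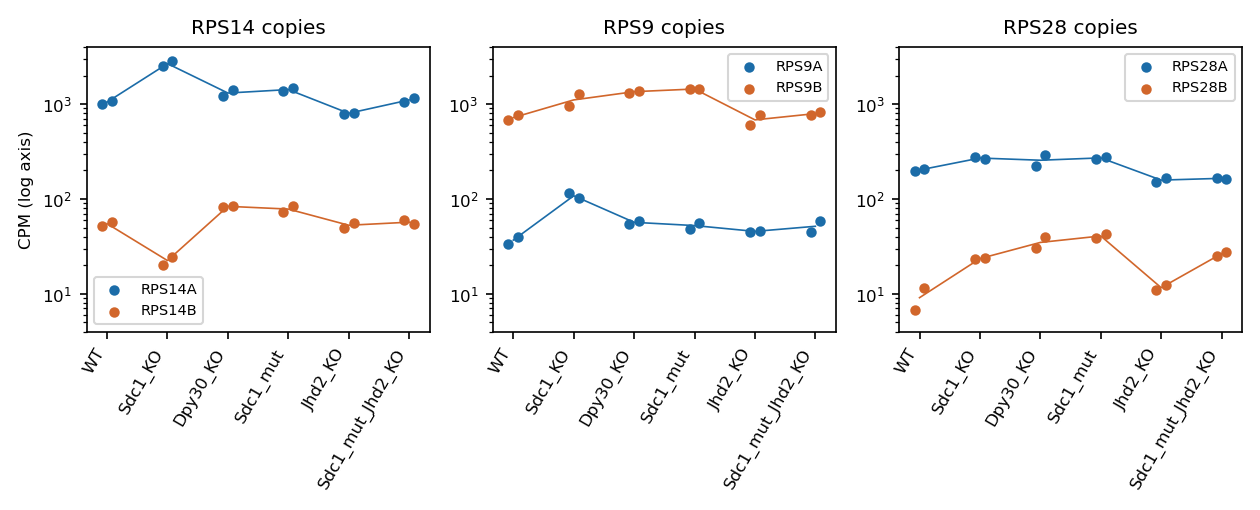
Level in CPM (y axis, log scale) of both copies of RPS14, RPS9 and RPS28 in 6 strains (x axis), each point a library and each line joining the means of 2 libraries. RPS14B falls from at least 52.2 CPM in WT to at most 24.6 CPM in Sdc1_KO while RPS14A rises, and RPS28B is above its WT level of at most 11.4 CPM in each strain with a changed SDC1 gene.

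RPS9A, the minor copy of a pair whose protein lies near the mRNA entry, also stood highest in Sdc1_KO. It was at 33.6 and 39.9 CPM in WT, 115 and 102 in Sdc1_KO, and 44.8 to 59.1 in the other libraries. The Sdc1_KO libraries lay above all others, and RPS9A rose by 1.56 ± 0.13 (adjusted p = 4.2e-06), the largest rise of any RPS gene in that strain. The share of the B copy went from 95.3 and 95.1% in WT to 89.1 and 92.6% in Sdc1_KO, a change of log2 A to B of 0.96 ± 0.19 (adjusted p = 0.0016). In Sdc1_mut the ratio moved the other way, by -0.49 ± 0.19 (adjusted p = 0.048). That call was lost without any 1 of the 4 libraries of the comparison (adjusted p = 0.083 to 0.22).

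RPS28B, the minor copy of RPS28, had the largest rise of any RPS gene in Dpy30_KO, Sdc1_mut and Sdc1_mut_Jhd2_KO. Its level was 6.8 and 11.4 CPM in WT, 23.2 and 23.8 in Sdc1_KO, 30.3 and 39.3 in Dpy30_KO, 38.5 and 43 in Sdc1_mut, 10.9 and 12.3 in Jhd2_KO, and 25.3 and 27.7 in Sdc1_mut_Jhd2_KO. The WT values rest on 179 and 272 fragments. RPS28B rose by 1.37 ± 0.20 in Sdc1_KO, 1.93 ± 0.20 in Dpy30_KO, 2.17 ± 0.20 in Sdc1_mut and 1.55 ± 0.20 in Sdc1_mut_Jhd2_KO, and stood at 0.36 ± 0.22 (adjusted p = 0.45) in Jhd2_KO. RPS28A moved less, at 196 and 208 CPM in WT and 265 and 277 in Sdc1_mut, a rise of 0.42 ± 0.12 (adjusted p = 0.011).

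The share of RPS28B in its pair was 3.35 and 5.19% in WT, 7.71 and 8.3% in Sdc1_KO, 11.8 to 13.4% in Dpy30_KO and Sdc1_mut, and 13.2 and 14.5% in Sdc1_mut_Jhd2_KO. The log2 ratio of A to B changed by -0.98 ± 0.17 in Sdc1_KO, -1.63 ± 0.17 in Dpy30_KO, -1.77 ± 0.17 in Sdc1_mut and -1.87 ± 0.18 in Sdc1_mut_Jhd2_KO (adjusted p = 0.00097 to 7.6e-06), and the value in Jhd2_KO was -0.74 ± 0.19 (adjusted p = 0.053). Jhd2_KO libraries, at 6.73 and 6.92%, lay above both WT libraries. RPS28B remained the minor copy in all 12 libraries.

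Other pairs moved by less. Of the 24 RPS pairs, 12 changed their ratio in Sdc1_KO, 10 in Dpy30_KO and 9 in Sdc1_mut, against 56%, 54.3% and 53.5% of all pairs tested. In Sdc1_mut_Jhd2_KO 8 changed against 61.2%. Each of these counts is at or below the share of all pairs, so a changed ratio was not more frequent among RPS pairs than among paralogs of the genome. The median absolute change was 0.22, 0.25, 0.21 and 0.17 in these strains, beside 0.49, 0.47, 0.45 and 0.53 in the other 731 pairs. The count in Sdc1_mut fell when 1 library of the comparison was left out, whichever it was. That in Sdc1_KO was 6 in a fit of only these 2 groups. The share of all pairs called in these fits was not counted. Over the 5 comparisons with WT, 19 pairs were called at least once, and 5 were called in none, RPS4, RPS24, RPS26 and RPS30 among them.

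Among pairs called in Sdc1_KO, RPS7A gained on RPS7B (0.64 ± 0.14, adjusted p = 0.0031), with a B share of 57 and 57.3% in WT and 42.7 and 49.5% in Sdc1_KO. RPS0B gained on RPS0A there (-0.53 ± 0.09, adjusted p = 0.00065), as its share went from 47.7 and 48.4% to 58.5 and 56%. In RPS22 the A copy gained in Dpy30_KO (0.49 ± 0.11, adjusted p = 0.0026), and the intron of RPS22B holds the small nucleolar RNA gene SNR44, whose reads could not be told apart from those of the intron. RPS10A gained on RPS10B in all 3 single SDC1 mutants (0.40 ± 0.10, 0.46 ± 0.10 and 0.50 ± 0.10), with B shares of 49.4 to 53.1% against 58.2 and 59.4% in WT. In Sdc1_KO this change was not called in a fit of only the groups compared (0.40, adjusted p = 0.069).

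**Figure D5:**
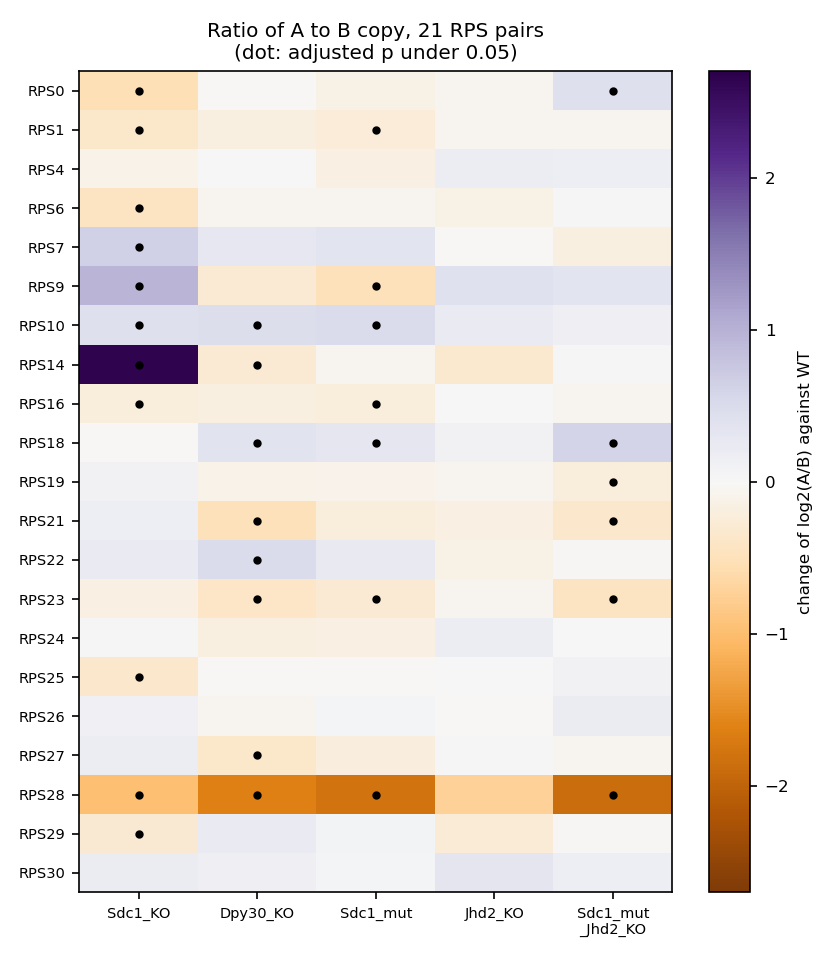
Change of the log2 ratio of A to B copy against WT (colour, purple for a gain of the A copy and orange for a gain of the B copy) in 21 RPS pairs (rows) and 5 mutant strains (columns), with a dot where the adjusted p was under 0.05. RPS14 in Sdc1_KO (2.64) and RPS28 in Sdc1_mut_Jhd2_KO (-1.87) stand out, and the Jhd2_KO column has no dot.

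Deletion of JHD2 alone gave no called change of an RPS gene in the edgeR fit of all 12 libraries. In Jhd2_KO 0 RPS genes rose and 0 fell by its quasi-likelihood test, against 0.755% and 0.88% of all genes. These were 48 and 56 genes, against 13 and 40 with limma on the authors' FPKM. The median log2 fold change was -0.11, beside -0.002 over all genes. It was positive in 11 of 56 RPS genes and in 3148 of 6361 genes. At an unadjusted p under 0.05 there were 10 of 56 RPS genes, against 1078 of 6361 genes in all (16.9%). DESeq2 called 3 of 56 RPS genes lower, against 2.65% of the 6237 genes to which it gave an adjusted p. The lowest value was that of RPS12, at 887 and 1033 CPM against 1222 and 1455 in WT, a log2 fold change of -0.48 ± 0.15 (adjusted p = 0.12). It was called by DESeq2 (-0.49, adjusted p = 0.022) and in a fit of only these 2 groups (adjusted p = 0.01). Of the RPS pairs 0 changed their ratio, against 5.03% of all pairs by edgeR's quasi-likelihood test, and limma on ratios of fragment counts called 1.

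In the strain that combines the point mutation with the JHD2 deletion, most RPS genes stood near WT. In Sdc1_mut_Jhd2_KO 9 RPS genes rose and 2 fell, against 29.1% and 30.1% of all genes, and the median log2 fold change was 0.06. These counts moved widely when a single library was left out. The share of all genes called in such fits was not counted, so the moves are not read as a result on RPS genes. Besides RPS28B, the largest rises were those of RPS0A (0.53 ± 0.14, adjusted p = 0.0059) and RPS9A (0.49 ± 0.14, adjusted p = 0.0076). Both calls ended without WT replicate 1 (adjusted p = 0.074 and 0.082), and that of RPS9A also without Sdc1_mut_Jhd2_KO replicate 2 (0.29, adjusted p = 0.12). RPS20 rose by 0.41 ± 0.13 (adjusted p = 0.013), a call lost without WT replicate 1 (adjusted p = 0.097) or without either Sdc1_mut_Jhd2_KO library (adjusted p = 0.053 and 0.056).

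RPS12 and RPS26B fell in Sdc1_mut_Jhd2_KO. RPS12 was at 804 and 925 CPM, below both WT libraries, and fell by 0.63 ± 0.15 (adjusted p = 0.0029). RPS26B, whose protein lies at the mRNA exit and is escorted by Tsr2, was at 292 and 311 CPM against 374 and 462 in WT and fell by 0.47 ± 0.16 (adjusted p = 0.02). The call of RPS26B ended without WT replicate 2 (-0.31, adjusted p = 0.18) and without either Sdc1_mut_Jhd2_KO library (adjusted p = 0.11 and 0.058). The single-copy genes other than RPS12 and RPS20 named here lay between -0.15 and 0.06 and were not called. Among pairs, RPS18A gained on RPS18B (0.60 ± 0.09, adjusted p = 0.00027). The RPS18B share was 31.7 and 31.1% against 41.4 and 40.6% in WT.

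Set against its 2 parent strains, the double mutant differed from Sdc1_mut in nearly every RPS gene. Against Sdc1_mut 53 of 56 RPS genes were lower and 0 higher, beside 19.4% and 13.2% of all genes (1231 and 838 genes, against 969 and 1027 with limma on the authors' FPKM), with a median log2 fold change of -0.72 (-0.04 over all genes). RPS0B fell most, from 995 and 1053 CPM to 499 and 484 (-1.06 ± 0.15, adjusted p = 0.00038). RPS10A (-0.98 ± 0.13), RPS7A (-0.96 ± 0.14) and RPS22A (-0.92 ± 0.15) followed. The 3 genes not called were RPS7B (-0.44 ± 0.18, adjusted p = 0.073), RPS20 (-0.21 ± 0.13, adjusted p = 0.22) and RPS9A (-0.03 ± 0.14, adjusted p = 0.9). Of RPL and RPP genes 58 of 78 were lower. In the same comparison 7 RPS pairs changed their ratio against 34.6% of all pairs. Fewer did when any library of the 2 groups was left out, in fits whose share of all pairs was not counted.

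Against Jhd2_KO 15 RPS genes were higher and 0 lower, beside 28.6% and 29.8% of all genes, a share of rises close to that of all genes. The count fell when any library of the 2 strains was left out, in fits whose share of all genes was not counted. Of the pairs 6 changed against 60.1% of all pairs.

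The interaction term asks whether the JHD2 deletion changes a gene by a different amount in Sdc1_mut than in WT. Libraries of Sdc1_mut and Sdc1_mut_Jhd2_KO held 2 to 16 mitochondrial fragments, and those of WT and Jhd2_KO 29210 to 62777. The term cannot tell the point mutation apart from this difference. It was negative and called in 26 RPS genes and positive in 0, against 12% and 8.39% of all genes (763 and 534 genes, against 484 and 638 with limma on the authors' FPKM), with a median of -0.58 (-0.04 over all genes). RPS0B had the largest value (-1.19 ± 0.21, adjusted p = 0.0031), from a log2 change of 0.13 with the deletion of JHD2 in WT and of -1.06 in Sdc1_mut. The number called fell strongly when most single libraries were left out, in fits whose share of all genes was not counted. The ratio of copies had a called interaction in RPS0 (0.60 ± 0.12, adjusted p = 0.008) and RPS10 (-0.57 ± 0.14, adjusted p = 0.014), against 21.3% of all pairs. That of RPS10 was not called without WT replicate 1 (adjusted p = 0.055), Sdc1_mut replicate 2 (adjusted p = 0.052) or Jhd2_KO replicate 1 (adjusted p = 0.054). The RPS0B share was 41.2 and 41.1% in Sdc1_mut_Jhd2_KO and 47.7 to 50.8% in WT, Sdc1_mut and Jhd2_KO.

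RNA of genes for proteins that bind or build the small subunit moved with the RPS genes in the single SDC1 mutants. ASC1, the yeast RACK1 that sits on the head of the subunit, was at 1630 and 1917 CPM in WT. It rose by 0.52 ± 0.14 in Sdc1_KO, 0.71 ± 0.14 in Dpy30_KO, 0.83 ± 0.14 in Sdc1_mut and 0.65 ± 0.14 in Sdc1_mut_Jhd2_KO. STM1, a clamp of idle ribosomes, rose by 0.49 ± 0.12, 0.44 ± 0.12 and 0.56 ± 0.12 in the single mutants and stood at -0.04 ± 0.12 (adjusted p = 0.78) in Sdc1_mut_Jhd2_KO. Of 19 assembly factors of the small subunit, 15 rose in Sdc1_KO, 15 in Dpy30_KO, and 16 rose and 1 fell in Sdc1_mut, with medians of 0.86, 0.78 and 1.09. In these strains 28%, 27.2% and 27.9% of all genes rose and 22.4%, 25.1% and 24.7% fell. In Sdc1_mut_Jhd2_KO 13 rose and 3 fell (median 0.81), against 29.1% and 30.1% of all genes, while the median of the RPS genes was 0.06. In Jhd2_KO 0 rose and 2 fell, TSR1 (-0.60 ± 0.11) and the rRNA endonuclease gene NOB1 (-0.55 ± 0.11). Of all genes 0.755% rose and 0.88% fell there.

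The largest rises among assembly factors in Sdc1_KO were those of the rRNA methyltransferase genes EMG1 (1.90 ± 0.13) and BUD23 (1.88 ± 0.15) and of TSR2, the escort of Rps26 (1.49 ± 0.20). In Dpy30_KO they were ENP1 (1.75 ± 0.19), EMG1 (1.52 ± 0.13) and the kinase gene RIO2 (1.41 ± 0.12). In Sdc1_mut they were ENP1 (2.11 ± 0.19), EMG1 (1.73 ± 0.13) and the export factor gene RRP12 (1.68 ± 0.15). In Sdc1_mut_Jhd2_KO they were RRP12 (1.61 ± 0.15), ENP1 (1.60 ± 0.19) and YAR1, the escort of Rps3 (1.32 ± 0.13).

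Of 14 regulators of ribosomal protein genes, 4 rose and 6 fell in Sdc1_KO, 5 and 5 in Dpy30_KO, 3 and 5 in Sdc1_mut, and 6 and 2 in Sdc1_mut_Jhd2_KO. Of all genes, 28% rose and 22.4% fell in Sdc1_KO, 27.2% and 25.1% in Dpy30_KO, 27.9% and 24.7% in Sdc1_mut, and 29.1% and 30.1% in Sdc1_mut_Jhd2_KO. TOD6, a repressor of ribosome biogenesis genes, rose in these 4 strains (1.43 ± 0.19, 1.57 ± 0.19, 1.78 ± 0.19 and 1.83 ± 0.19) and fell in Jhd2_KO (-1.32 ± 0.25, adjusted p = 0.023). Its level was 8.86 and 10.1 CPM in WT and 3.47 and 4.06 in Jhd2_KO. Its relative DOT6 fell in Sdc1_KO (-1.26 ± 0.15), Dpy30_KO (-0.52 ± 0.15) and Sdc1_mut (-0.64 ± 0.15), and so did the general factor gene REB1 (-0.97 ± 0.17, -0.63 ± 0.17 and -0.59 ± 0.17). IFH1, the coactivator at RPS promoters, rose in Sdc1_KO (0.55 ± 0.13), Dpy30_KO (0.98 ± 0.13), Sdc1_mut (1.07 ± 0.13) and Sdc1_mut_Jhd2_KO (1.52 ± 0.13). ABF1, a general factor that acts at promoters of a few RPS genes, fell in the same 4 strains (-0.68 ± 0.18, -0.70 ± 0.19, -0.71 ± 0.19 and -0.93 ± 0.19).

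Upstream letters were searched in the 500 bases before each start codon, on both strands. The Rap1 letters ACCCNNACA were found in 18 of 56 RPS genes (32.1%) and in 329 of 6002 protein-coding genes (5.48%). The Abf1 letters, TCA and ACG with 6 bases of any kind between them, were found in 21.4% of RPS genes and 22.7% of all, and the RRPE letters AAAAATTTT in 5.36% and 9.46%. The Rap1 letters were in 1 copy only in 11 pairs, in both copies in 2 and in neither in 11. Of the 11 pairs, 4 changed their ratio in Dpy30_KO, and all 4 (RPS21 and RPS23 among them) moved toward the copy with the letters. In Sdc1_mut_Jhd2_KO 6 changed and 5 moved toward it (the same 4 and RPS0), in Sdc1_mut 3 of 4, and in Sdc1_KO 2 of 5. The pairs that moved away from it were RPS19 in Sdc1_mut_Jhd2_KO, RPS1 in Sdc1_mut, and RPS0, RPS1 and RPS6 in Sdc1_KO. As a share of the 11 pairs, the 4, 6, 4 and 5 that changed lie below the shares of all pairs called, which were 54.3% in Dpy30_KO, 61.2% in Sdc1_mut_Jhd2_KO, 53.5% in Sdc1_mut and 56% in Sdc1_KO. The 4 pairs called in Dpy30_KO hold the letters in the B copy. Of all RPS pairs called, 7 of 10 moved toward B in Dpy30_KO and 6 of 8 in Sdc1_mut_Jhd2_KO. In those 4 pairs a move toward the letters cannot be told apart from a move toward the B copy. These comparisons share WT libraries, and the pattern was seen after the values. The median shift toward the copy with the letters over all 11 pairs was -0.01 in Dpy30_KO and 0.03 in Sdc1_mut_Jhd2_KO. RPS23 and others of these pairs have near-identical copies.

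The upstream stretches of 3 copies that hold the Rap1 letters in those pairs, those of RPS0, RPS21 and RPS23, are shown 5′ to 3′ on the gene's strand. Capitals mark the letters found within the 500 bases searched. The RPS0A stretch also holds a match in lower case, which begins just outside the 500 bases and was not counted. A match is a description and not a site.
RPS0A, chrVII:920062-920130, plus strand: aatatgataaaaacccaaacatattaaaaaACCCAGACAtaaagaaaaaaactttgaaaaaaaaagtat
RPS21B, chrX:157577-157645, minus strand: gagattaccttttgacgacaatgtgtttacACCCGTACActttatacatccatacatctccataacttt
RPS23B, chrXVI:794627-794695, plus strand: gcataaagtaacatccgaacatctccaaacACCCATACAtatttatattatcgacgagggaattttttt
The RPS28 copies both hold the Abf1 letters, on the strand opposite to the gene, and are shown because their ratio moved in 4 strains.
RPS28A, chrXV:649130-649201, minus strand: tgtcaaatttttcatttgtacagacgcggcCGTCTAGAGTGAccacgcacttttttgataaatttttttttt
RPS28B, chrXII:672920-672991, plus strand: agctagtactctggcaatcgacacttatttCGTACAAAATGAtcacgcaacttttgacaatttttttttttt

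The genes with the pattern most like RPS14B over the 12 libraries, by Pearson's r of log2 CPM over all genes tested, were the flavohemoglobin gene YHB1 (r = 0.972), the malate dehydrogenase gene MDH2 (r = 0.95) and the pyrimidine gene URA1 (r = 0.943). The libraries share strain groups, so these are not 12 independent points. In all 3 genes, as in RPS14B, the 2 Sdc1_KO libraries were the lowest: YHB1 was at 1009 and 1205 CPM there and at 1562 to 2100 elsewhere. The r between RPS14B and RPS14A was -0.603.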

How the data were processed

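RNA of 12 libraries, 6 strains with 2 each, was made into NEBNext Ultra Directional libraries, per the labels' protocols. Per the submitters' processing notes, bcl2fastq 2.17.1.14, TopHat, Cufflinks and sacCer3 were used, and the authors deposited an expected count (fragments) and an FPKM per gene. The strand setting, annotation and handling of reads that fit several genes are not given in the sources used here. In the deposited counts 97.8% of values were whole, and none of the members' values had to be rounded.

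Genes were tested with edgeR 4.0.16 (R 4.3.3) by quasi-likelihood on counts rounded to whole numbers, with TMM scaling, filterByExpr, all 12 libraries and 6 groups, and Benjamini-Hochberg adjustment over 6361 of 7112 genes, leaving out 14 identifiers marked as too deep. Standard errors are the log2 fold change divided by the root of F. The common biological coefficient of variation was 10.2%. Paralog pairs were reciprocal best protein hits (blastp 2.17.0, E under 1e-10, 50% coverage), and 755 of 805 were tested by the same method with the copy as a term. The number of fragments, 8652878 to 26041718 per library, sets the precision. Gene models held no UTRs (99.2% of lengths were multiples of 3). Alternatives were RLE scaling, DESeq2 1.42.0, limma 3.58.1 on log2(FPKM + 1) and log2(FPKM + 0.1), no filter, a replicate term, only the groups compared, and each library left out. The statistical scripts were tested on simulated data.

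Genes named are the single-copy genes, the 5 called with the largest change in each comparison with WT, those called against the direction of most, up to 10 pairs with the largest change of ratio, and the 3 most changed of each list; RPS22A and the last genes of the comparison with Sdc1_mut were chosen after their values were seen. Results of some members are not reported here by name. The members, gene lists and rules were chosen with earlier results of these data known. Samples were grouped by their labels, and 0 columns belonged to other samples.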

Additional observations from a re-analysis of the deposited data

Results flagged for a closer look

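The effect of deleting JHD2 differed between Sdc1_mut and WT by the interaction test (edgeR's quasi-likelihood test, adjusted p under 0.05) in 26 RPS genes, all with a negative term. Sdc1_mut and WT also differed in mitochondrial RNA, as given above, and the test cannot tell this apart from the point mutation. The log2 terms were -1.19 for RPS0B, -0.98 for RPS28B, -0.96 for RPS10A, -0.93 for RPS1B, -0.67 for RPS2 and -0.62 for RPS3. The ratio of A to B copy had a term of 0.60 for RPS0 and -0.57 for RPS10. RPS28B was not called when any library but WT replicate 2 was left out (adjusted p = 0.06 to 0.14), and it was at -0.65 without WT replicate 1. RPS2 and RPS3 were not called without 6 of the 8 libraries (adjusted p = 0.059 to 0.1 and 0.073 to 0.16). RPS1B was not called without WT replicate 1 (adjusted p = 0.053) or Jhd2_KO replicate 2 (adjusted p = 0.06).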

How the results depend on the processing

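Of the counts of RPS genes and pairs called under an alternative, 231 stayed within 1.5 times the main count and 53 did not. Of the values of single genes and pairs, 1493 kept their direction and side of the threshold, 153 lost the call, 4 gained it and 19 changed sign. In fits of only the groups compared, without 1 library or with a replicate term, shares of all genes and pairs were not counted. Whether the moves in those fits are particular to RPS genes was not tested. The moves beyond those given with the results were as follows. A fit of only the groups compared gave 27 genes higher and 6 pairs in Sdc1_KO, 4 lower and 3 pairs in Jhd2_KO, 5 lower in Sdc1_mut_Jhd2_KO, 25 higher against Jhd2_KO, and 45 genes lower and 5 pairs in the interaction. DESeq2 called 3 lower in Jhd2_KO, where over all genes it called 108 higher and 165 lower against 48 and 56 with edgeR. limma on log2(FPKM + 1) and on log2(FPKM + 0.1) each called 1 lower in Sdc1_mut_Jhd2_KO and 12 in the interaction, and on ratios of counts and of FPKM each called 1 pair in Jhd2_KO. Among the 38 genes without a near-identical copy, by construction fewer, 29 rose in Sdc1_KO, 32 in Dpy30_KO and 5 in Sdc1_mut_Jhd2_KO, 35 were lower against Sdc1_mut, and 13 had a called interaction. Among pairs under 95% identity 4 changed in Sdc1_mut_Jhd2_KO.

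Left-out libraries gave these ranges. Genes higher in Sdc1_KO numbered 31 to 53, in Sdc1_mut_Jhd2_KO 1 to 15 higher and 1 to 4 lower, against Jhd2_KO 6 to 10, and in the interaction 3 to 34. Pairs numbered 3 to 5 in Sdc1_mut, 0 to 1 in Jhd2_KO, 1 to 2 against Sdc1_mut, and 1 to 3 in the interaction. Signs changed only in genes not called, with the cause not tested. In Sdc1_KO RPS12 ran from -0.241 to 0.137 and RPS31 from -0.11 to 0.286. In Jhd2_KO RPS2 ran from -0.218 to 0.053, and RPS15 from -0.265 to 0.055. In Sdc1_mut_Jhd2_KO RPS2 ran from -0.078 to 0.102, RPS3 from -0.048 to 0.169 and RPS15 from -0.166 to 0.154. With limma on either FPKM scale RPS12 in Sdc1_KO was 0.092, and RPS15 in Sdc1_mut_Jhd2_KO was 0.091, and 0 under RLE scaling and DESeq2.

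With the replicate block, 1 gene was lower and 1 pair changed in Jhd2_KO, 5 genes were lower in Sdc1_mut_Jhd2_KO, and RPS9 lost its call in Sdc1_mut (adjusted p = 0.059). It moved no other count by over 1.5 times and ended no other named call. The numbers did not pair the libraries: correlations of deviations ran from -0.13 to 0.16 over 15 pairs of groups, 8 of them below 0. With 2 libraries a group, precision is limited by their number and, for RPS28B, by 179 fragments in the lower WT library.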
